A study of Mus musculus with 12 samples.

Results

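The genes described here build the gate between cytosolic ATP and the mitochondrion: the 3 voltage-dependent anion channels of the outer membrane (Vdac1, Vdac2 and Vdac3), the ADP/ATP carriers of the inner membrane (Slc25a4 and Slc25a5) and the hexokinases that dock on the channels (Hk1 and Hk2). They were read by every probe set of the array to which the platform annotation gives exactly 1 symbol among these 7 genes, which came to 22 of 45101 probe sets. The array named 18193 genes in this way. The 7 were chosen by their shared function and by the log2 differences between p190B and control, in which 1 Vdac1 probe set had passed the test. Differences between the genotypes are therefore given for these genes as a description, with no test of their own.

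VDAC channels let ATP, ADP, phosphate and metabolites cross the outer membrane. The ADP/ATP carriers then exchange cytosolic ADP for ATP made in the matrix. Hexokinases phosphorylate glucose as the first step of its use, and Hk1 and Hk2 carry an N-terminal stretch that binds VDAC, which places them beside ATP leaving the mitochondrion.

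Expression was measured on single-colour Affymetrix arrays in primary mammary epithelial cells of females of the inbred strain FVB/N. In the p190B group, measured on 6 arrays, mice carried MMTV-rtTA, a doxycycline-dependent activator driven by a mammary tumour virus promoter, together with TetO-p190B-IRES-luciferase, which makes the GTPase-activating protein p190B RhoGAP and luciferase when that activator is on. Control mice, also measured on 6 arrays, carried MMTV-rtTA only. All mice started at 5 weeks of age on food holding doxycycline (2 g/kg) and stayed on it for 7 days, so both groups share the drug and the activator. The comparison asks which transcripts differ when p190B is made in the pubertal gland. The labels call the arrays of a group biological replicates and give no batch or date, nor whether glands of several mice were pooled.

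Values are linear intensities scaled by the authors, compared after log2(value + 16), and probe sets differ in their affinity, so the level of 1 probe set is not set against that of another. Epithelial markers were present but not all alike between genotypes. Krt8 had 42795 ± 1706 units in p190B cells and 42125 ± 3298 in control cells, and Epcam 26356 ± 1223 and 26084 ± 2990 (SD, n = 6 each). Cdh1 had 9965 ± 1636 units in p190B and 13968 ± 2539 in control (log2 difference −0.48, limma adjusted p = 0.233), while Elf5 had 13952 ± 1241 and 11497 ± 1738 (0.29, adjusted p = 0.355) and Krt18 had 50035 ± 2832 and 44776 ± 3671 (0.16, adjusted p = 0.403). The basal marker Krt5 had 2828 ± 466 and 2985 ± 538 units, and the milk protein Wap varied widely, at 1725 ± 1857 and 1034 ± 814. The whole epithelial list averaged 13.97 ± 0.15 (log2) in p190B and 13.90 ± 0.18 in control. The preparations also held other cells. The fibroblast markers averaged 14.38 ± 0.12 (log2) in p190B and 14.29 ± 0.22 in control, the macrophage markers 12.61 ± 0.20 and 12.48 ± 0.25, and the endothelial markers 12.16 ± 0.19 and 12.22 ± 0.31. The lymphocyte markers ran from 6.40 to 10.14 over the p190B arrays and from 6.88 to 9.98 over the control arrays, and the adipocyte and skeletal muscle means differed between genotypes by −0.05 and −0.11. In such mixtures fewer cells of a type and less RNA per cell cannot be told apart. The log2 ratio of the 3′ to the 5′ control probe set, a sign of RNA length, was −0.40 ± 0.06 over p190B arrays and −0.49 ± 0.02 over control arrays for Gapdh, and 0.40 ± 0.11 and 0.29 ± 0.03 for Actb (SD, n = 6 each). The Actb ratio was highest on p190B replicates 1 and 3.

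Promoter sequences at the starts of these genes were searched for short motifs. RefSeq windows of 300 bases (250 before and 50 after a start, GRCm38.p6) were found for 5 of the 7 genes. Printed 5′ to 3′ are the windows of Vdac1, whose probe set differed most between genotypes, of both carriers, each of which varied with Vdac3 over the arrays, and of Hk2, the gene with the widest spread. Capitals mark the GC box GGGCGG and the CCAAT box CCAAT on either strand.
Vdac1, chr11:52361347-52361646, plus strand: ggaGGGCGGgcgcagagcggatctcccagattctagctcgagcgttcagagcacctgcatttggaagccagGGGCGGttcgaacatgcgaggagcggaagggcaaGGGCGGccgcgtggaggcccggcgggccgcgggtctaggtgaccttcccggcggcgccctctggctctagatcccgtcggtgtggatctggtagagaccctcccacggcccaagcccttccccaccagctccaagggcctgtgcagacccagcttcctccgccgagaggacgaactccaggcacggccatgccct
Slc25a4, chr8:46211013-46211312, minus strand: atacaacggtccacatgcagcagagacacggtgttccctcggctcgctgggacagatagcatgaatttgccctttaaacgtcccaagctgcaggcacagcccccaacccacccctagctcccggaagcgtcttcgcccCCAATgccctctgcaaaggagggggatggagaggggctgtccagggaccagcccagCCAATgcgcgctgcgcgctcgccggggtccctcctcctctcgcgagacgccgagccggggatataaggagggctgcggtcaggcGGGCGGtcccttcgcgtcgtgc
Slc25a5, chrX:36795347-36795646, plus strand: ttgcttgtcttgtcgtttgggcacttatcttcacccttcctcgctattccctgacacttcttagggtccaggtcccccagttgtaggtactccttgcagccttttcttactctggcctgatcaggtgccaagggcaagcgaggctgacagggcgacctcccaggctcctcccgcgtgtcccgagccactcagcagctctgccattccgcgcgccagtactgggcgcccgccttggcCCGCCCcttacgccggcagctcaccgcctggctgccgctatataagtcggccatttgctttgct
Hk2, chr6:82774405-82774704, minus strand: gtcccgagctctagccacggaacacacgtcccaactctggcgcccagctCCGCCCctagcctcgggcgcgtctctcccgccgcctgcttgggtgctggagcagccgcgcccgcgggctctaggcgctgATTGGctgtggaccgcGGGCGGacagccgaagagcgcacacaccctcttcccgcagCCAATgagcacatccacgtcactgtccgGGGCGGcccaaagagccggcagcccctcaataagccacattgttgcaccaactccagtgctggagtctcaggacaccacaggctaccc
The Vdac1 window held 3 GC boxes, the Hk2 window 3 GC boxes and 2 CCAAT boxes, the Slc25a4 window 1 and 2, and the Slc25a5 window 1 GC box. A GC box stood in 35.7% and a CCAAT box in 37.4% of the 32851 windows of the table. The core of the NRF1 motif (GCATGCGC, in 2.71% of windows), the E-box CACGTG (7.15%), the ERR element TCAAGGTCA (0.423%) and the TATA box TATAAA (13.6%) were found in 0 of the 7 windows of these genes. Only these exact letters were searched, so variants were not counted. Both printed carrier windows hold tataag, a near match to the TATA box, so absence of such an element cannot be read from this count. The 7 windows include an upstream start of Vdac1 and both starts of Hk1, and these 3 windows held none of the 6 motifs.

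Vdac1, the most abundant channel of the outer membrane in most tissues, was read by 5 probe sets, and they split. Probe set 1437192_x_at ran from 14892 through a median of 15963 to 17559 units in p190B cells, against 11722, 11968 and 12782 in control cells. All 6 p190B arrays lay above all 6 control arrays. It averaged 15998 ± 881 units over the p190B arrays and 12076 ± 417 over the control arrays (SD, n = 6 each). The log2 difference was 0.40 (SE 0.05), or 1.32-fold.

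The brightest Vdac1 probe set, 1436992_x_at, also separated the genotypes, by a smaller step. It ran from 16119 through 16300 to 17629 units in p190B and from 13699 through 14429 to 15273 in control. The log2 difference was 0.20 (SE 0.04). In the remaining bright ones the groups overlapped: 1415998_at had a median of 8862 in p190B and 9088 in control (log2 difference −0.01, SE 0.05), and 1437947_x_at had 7563 and 7486 (0.02, SE 0.06). The dim 1437452_x_at averaged 93.0 ± 18.6 in p190B and 75.2 ± 15.9 in control and lay under the filter on low values.

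The same differences can be written as ratios within single arrays, which restate them and add no separate evidence. The log2 ratio of 1437192_x_at to 1415998_at was 0.84 ± 0.10 in p190B cells and 0.44 ± 0.11 in control cells (SD, n = 6 each). The ratio of 1436992_x_at to 1415998_at was 0.90 ± 0.05 in p190B and 0.69 ± 0.07 in control, and that of 1437947_x_at was −0.24 ± 0.08 and −0.26 ± 0.12. The sources used here do not give which part of the Vdac1 transcript each one reads. The suffix _x_at, carried by 4 of the 5, marks probe sets with some probes that also match other sequences, so signal from related copies cannot be told apart from that of Vdac1 in them.

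**Figure D1:**
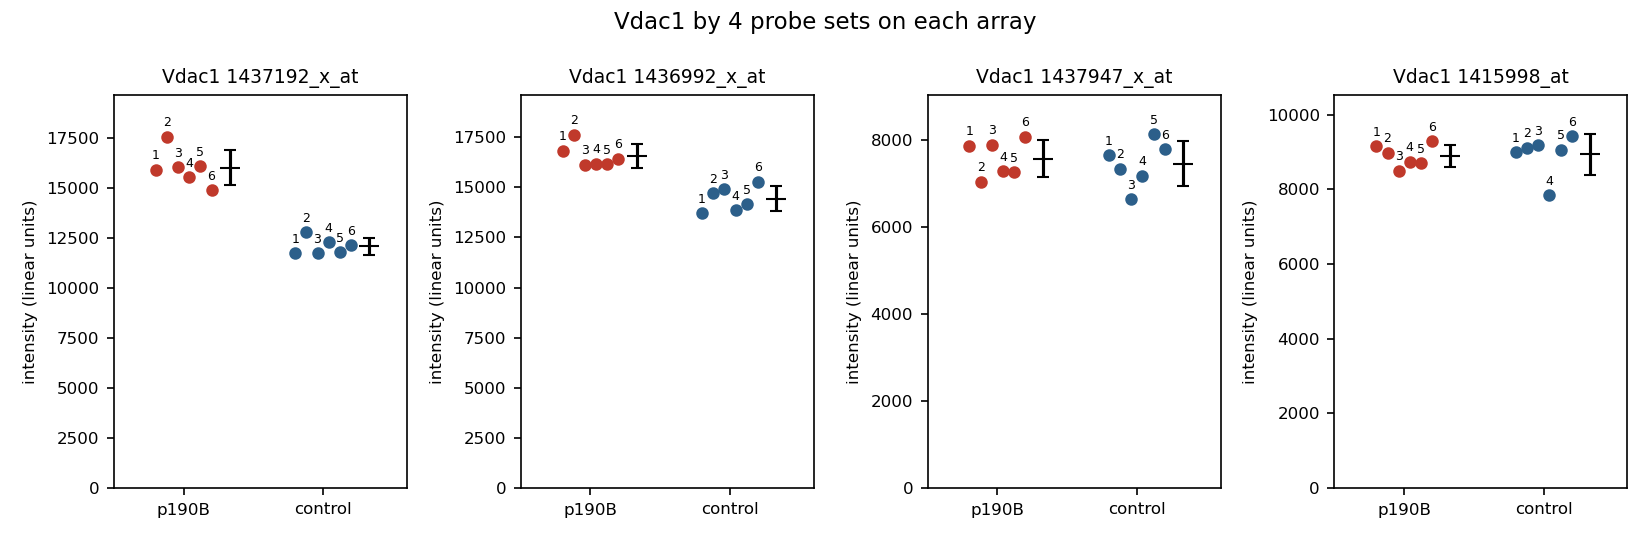
Intensity (linear units) of Vdac1 by its 4 tested probe sets, with 1 point per array numbered by replicate, p190B in red and control in blue, and bars for mean ± SD (n = 6). In 1437192_x_at and 1436992_x_at every p190B array lies above every control array, and in 1437947_x_at and 1415998_at the genotypes overlap.

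Across the 7 genes, 20 of the 22 probe sets passed the filter, and 1 of these 20, Vdac1 1437192_x_at, had passed limma's adjusted p over all tested probe sets (adjusted p = 0.00404), beside 0.037% of all 27022. That call was in the higher direction, beside 0.0037%, and calls in the lower direction numbered 0, beside 0.0333%. At an unadjusted limma p under 0.05 there were 2 of 20, the other being 1436992_x_at (adjusted p = 0.153), beside 9.32% of all tested. Both were higher, beside 4.51%, and 0 were lower, beside 4.81%. Complete separation of the genotypes was seen in 2 of the 20, both of Vdac1, beside 0.877% of all tested probe sets. In both p190B lay on top, beside 0.322%, and in 0 did p190B lie below all control arrays, beside 0.555%. These counts come from the contrast that brought the genes together and are not read further. The median log2 difference was 0.06 over the 20 probe sets and 0.02 over all tested ones.

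The Vdac1 call rested on the setting, while the size of the difference moved little. With the Gapdh ratio as a covariate the log2 difference of 1437192_x_at was 0.38 with adjusted p = 0.719 by limma, in a fit in which 0 of all tested probe sets passed (1802 had an unadjusted p under 0.05). The Actb ratio in its place gave 0.39 (limma adjusted p = 0.0712). Both ratios ran higher in p190B. The Gapdh ratio ran from −0.48 to −0.32 over p190B arrays and from −0.52 to −0.47 over control arrays. The Actb ratio ran from 0.31 to 0.59 and from 0.25 to 0.35. These fits therefore separate ratio and genotype poorly. With the Gapdh ratio the SE was 0.08, against 0.05 without it. Without p190B replicates 1 and 3 the difference was 0.40 (limma adjusted p = 0.0467).

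Vdac2, the channel isoform known for holding the death effector Bak, was read by 1 probe set. It ran from 14942 through 16291 to 17646 units in p190B and from 13172 through 15622 to 15921 in control. Of the p190B arrays, 4 lay above all control arrays, and the control group reached lowest in replicate 1. The log2 difference was 0.11 (SE 0.06, limma adjusted p = 0.599), and 0.07 without control replicate 1.

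Vdac3, the isoform with the weakest channel activity in reconstituted membranes, was read by 1 probe set. It had 10309, 11678 and 12406 units (lowest, median, highest) in p190B and 11127, 11586 and 12468 in control. The groups overlapped, with 2 p190B arrays below all control arrays, and the log2 difference was −0.02 (SE 0.05).

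Slc25a4 encodes the ADP/ATP carrier that dominates in heart and skeletal muscle. Its brightest probe set, 1455069_x_at, ran from 13691 through 15873 to 16982 units in p190B and from 13166 through 15496 to 16486 in control. The groups overlapped, and both held low arrays: p190B replicate 1 and control replicates 2 and 6. The 3 tested probe sets gave log2 differences of 0.06 (SE 0.07), 0.09 (SE 0.08) and −0.11 (SE 0.08), the last from 1434897_a_at with a median of 11374 in p190B and 12596 in control. The last was −0.07 without p190B replicate 1, and the 0.09 of 1424562_a_at was 0.05 without control replicate 2 or 6. The fourth, 1424563_at, stayed under the filter at 58.9 ± 20.3 units in p190B and 68.5 ± 17.9 in control.

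Slc25a5 encodes the carrier found in most dividing cells, and it had 8 probe sets, all above the filter. The brightest, 1436874_x_at, ran from 23253 through 26875 to 30204 units in p190B and from 23216 through 24852 to 26084 in control. Here 4 p190B arrays lay above every control array, while p190B replicates 1 and 3 lay within the control range. The spread was wider in p190B (SD 2590 units) than in control (SD 1008 units), a contrast that was not tested. The log2 differences of the 8 ran from −0.19 (SE 0.14) in 1438360_x_at to 0.13 (SE 0.07) in 1430542_a_at. The first was −0.11 without p190B replicate 1 and −0.09 without control replicate 5, and the second 0.08 without p190B replicate 2. For 1436874_x_at the log2 difference was 0.10 (SE 0.06), and 0.06 without p190B replicate 2.

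Hk1, the widespread hexokinase, gave a log2 difference of 0.01 (SE 0.09) by its brighter probe set 1437974_a_at, which ran from 2848 through 3610 to 4162 units in p190B and from 3220 through 3473 to 4071 in control. The other, 1420901_a_at, gave 0.18 (SE 0.11), with a median of 1593 in p190B and 1405 in control. Both overlapped between genotypes.

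Hk2, the insulin-responsive hexokinase of muscle and fat that many tumours raise, varied most between preparations. It ran from 4019 through 4884 to 8027 units in p190B and from 3738 through 4516 to 7233 in control. A single array stood high in each group, p190B replicate 1 and control replicate 2. The log2 difference was 0.11 (SE 0.18), and −0.46 (SE 0.20) once the Gapdh ratio, which itself differed between genotypes, entered the fit. It was −0.02 without p190B replicate 1 and 0.22 without control replicate 2, so a single array set its sign.

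**Figure D2:**
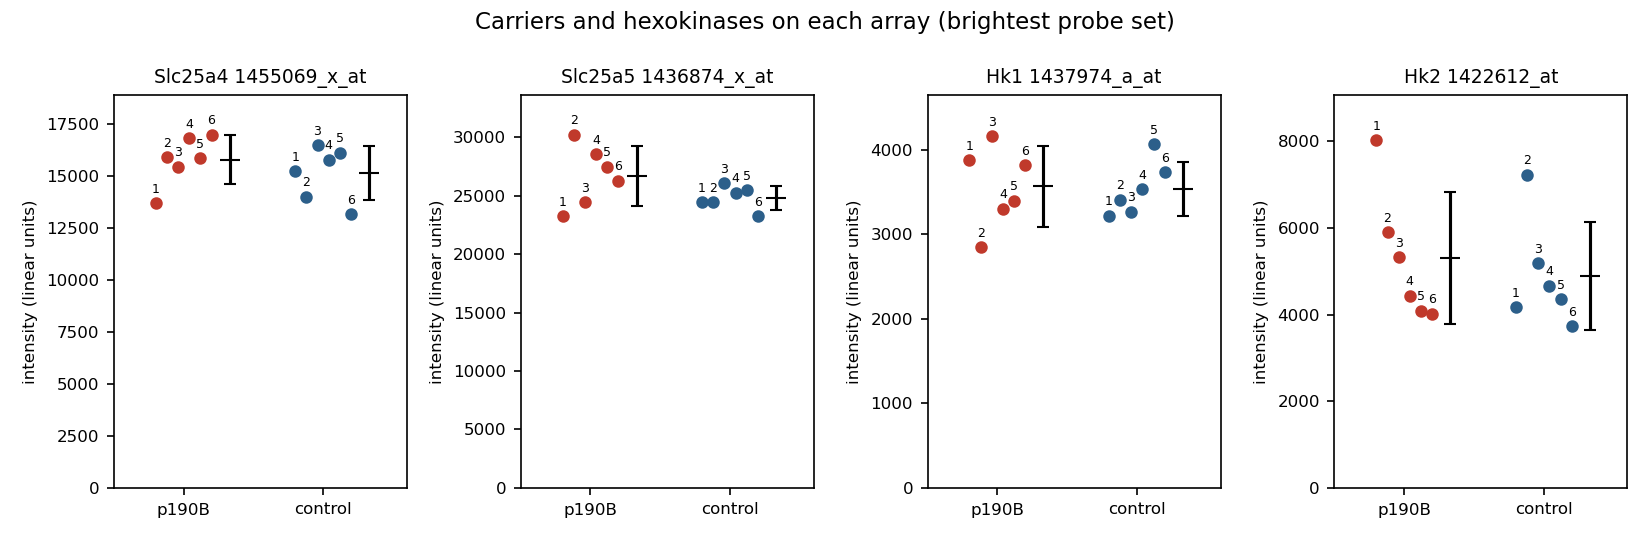
Intensity (linear units) of Slc25a4, Slc25a5, Hk1 and Hk2 by the brightest probe set of each, with 1 point per array numbered by replicate, p190B in red and control in blue, and bars for mean ± SD (n = 6). The genotypes overlap in all 4 panels, and Hk2 has 1 high array in each group, at 8027 units in p190B and 7233 in control.

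**Figure D3:**
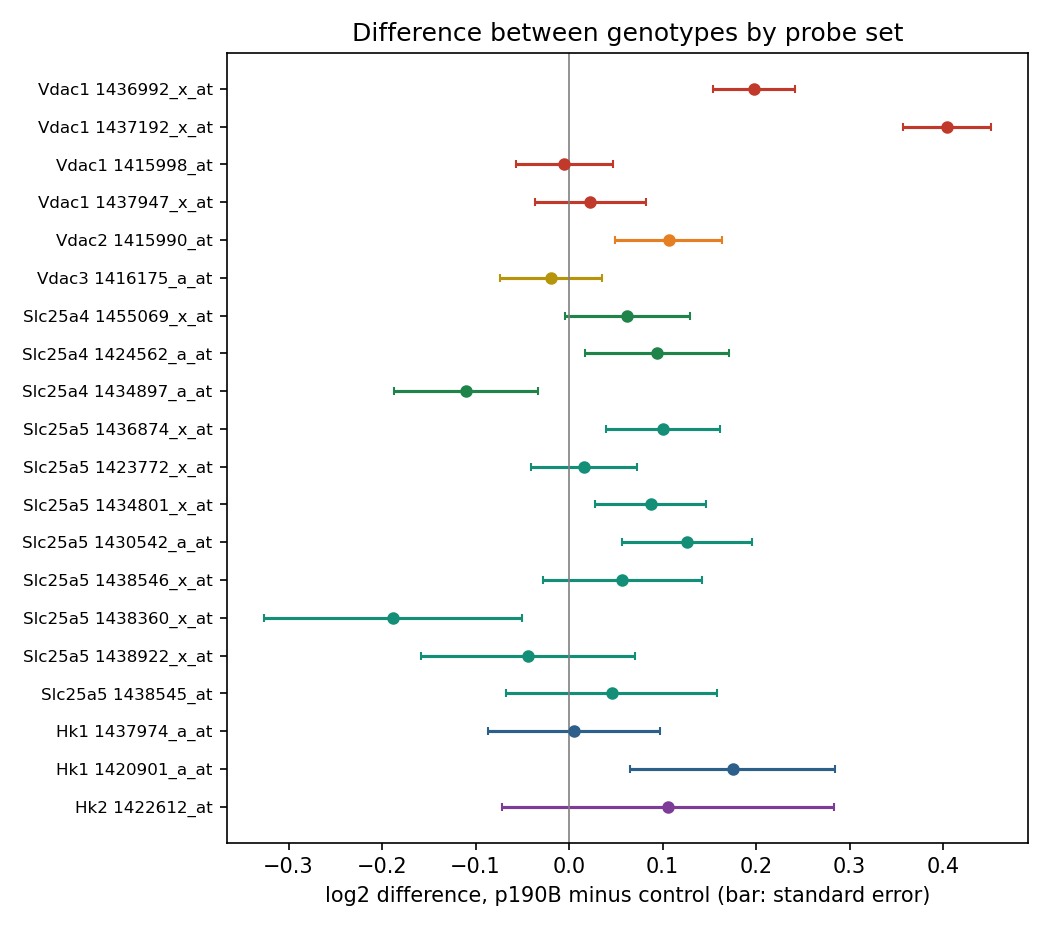
Log2 difference, p190B minus control, of the 20 tested probe sets with its standard error (n = 6 arrays per group), coloured by gene. The differences run from −0.19 to 0.40, and the highest pair are the Vdac1 probe sets 1437192_x_at and 1436992_x_at.

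The spread within a genotype is given as a description, since a small spread favours the limma call through which Vdac1 came into the group. The within-genotype SD was 0.06 and 0.07 log2 units for Vdac1 1436992_x_at and 1437192_x_at, at the 0.540 and 1.24 percentiles of all tested probe sets. It was 0.09 for Vdac2 (percentile 7.05) and 0.08 for Vdac3 (percentile 4.46). Hk2 stood at the other end, with 0.36 (percentile 84.5), and Hk1 between them with 0.17 and 0.20. Bright probe sets tend to be less variable on this scale, and the SD was not adjusted for brightness.

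Whether probe sets of 1 gene vary together was checked with values less their genotype mean, so that no difference between genotypes enters. Permutation tests of Pearson's r over the 12 arrays were adjusted over the 38 pairs by Benjamini-Hochberg. For Slc25a4, 3 of 3 pairs passed, with r from 0.88 to 0.95. For Slc25a5, 11 of 28 pairs passed, with r from 0.08 to 0.99 and a median of 0.54. Of these 11, 10 were the pairs among the 5 brightest, with r from 0.85 to 0.99. Slc25a5 1438360_x_at and 1438922_x_at varied with each other (r = 0.93, Spearman's rho = 0.92, permutation p adjusted over the pairs 0.000237 and 0.000434) and gave r from 0.08 to 0.58 with these 5. The pairs of 1438545_at had r from 0.38 to 0.65, and 0 of 7 passed by r (1 had an unadjusted permutation p under 0.05).

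For Vdac1, 0 of 6 pairs passed by Pearson's r, and 1 at an unadjusted permutation p under 0.05. Their r ran from −0.39 to 0.58 around a median of 0.04. The probe sets that separated the genotypes gave r = 0.48 (rho = 0.25, permutation p = 0.114 and 0.432) with each other, 0.23 without the arrays farthest from the median, 0.72 within p190B and 0.24 within control. The pair 1436992_x_at and 1415998_at gave r = 0.58 (permutation adjusted p = 0.0976) and rho = 0.72 (adjusted p = 0.0289). The within-genotype SD of the 4 probe sets ran from 0.06 to 0.09 log2 units.

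Between genes, read by the brightest probe set of each, 2 of the 21 pairs passed. Vdac3 varied with Slc25a4 (r = 0.85, rho = 0.85, permutation p adjusted over the pairs 0.00924 and 0.0170). The r was 0.79 without the arrays farthest from the Slc25a4 median, 0.95 within p190B and 0.77 within control. Vdac3 also varied with Slc25a5 (r = 0.78, rho = 0.78, adjusted permutation p 0.0274 and 0.0454), at 0.79 without the farthest arrays, 0.80 within p190B and 0.80 within control. Without p190B replicates 1 and 3 these r were 0.78 (adjusted p = 0.134) and 0.41 (adjusted p = 0.485) in permutation tests over 10 arrays, so neither passed without them.

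The carriers gave r = 0.68 with each other (rho = 0.68, adjusted permutation p 0.0739 and 0.129), and both were read by _x_at probe sets, which may share probes with related sequences. Hk1 ran against Slc25a5 at r = −0.73 (rho = −0.62, adjusted permutation p 0.0549 and 0.183), −0.91 within p190B and −0.11 within control. Neither passed. The other 17 pairs had r from −0.52 to 0.54. Some of these r depended on the scaling of the arrays. After quantile normalisation the carriers gave r = 0.80 with each other (adjusted permutation p = 0.0289). With equal medians Vdac2 gave 0.80 with Vdac1 (adjusted permutation p = 0.0143) and 0.74 with Vdac3 (0.0218). After quantile normalisation the same Vdac2 pairs gave 0.13 and 0.23, and neither passed.

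**Figure D4:**
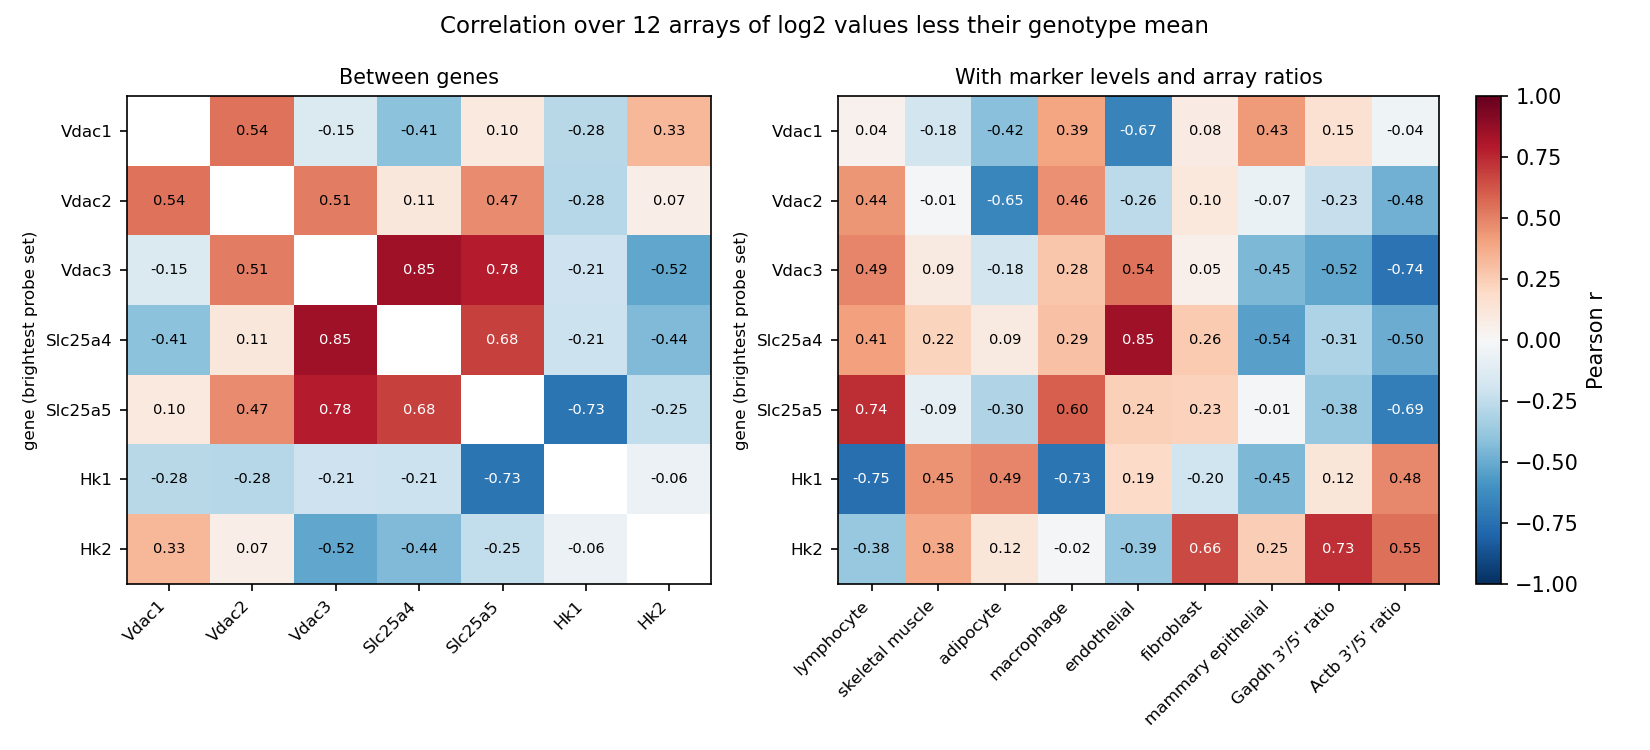
Pearson's r over 12 arrays of log2 values less their genotype mean, between the 7 genes (left) and between each gene and the mean level of each marker list or a 3′ over 5′ ratio (right), red for positive and blue for negative. The strongest positive cells are Vdac3 with Slc25a4 and Slc25a4 with the endothelial markers, both 0.85.

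The genes were next set against markers of the cell types in the preparations and against the 3′ over 5′ ratios, in 63 relations of which 1 passed. Slc25a4 varied with the endothelial markers (Pecam1, Cdh5, Kdr, Tek, Emcn, Cldn5 and Vwf). Over 12 arrays r was 0.85 and rho 0.79, with permutation p of 0.000720 and 0.00355, or 0.0454 and 0.110 after adjustment over the 63 relations. It was 0.74 without control replicates 2 and 6, the arrays farthest from the median, 0.67 within p190B and 0.97 within control. With every array set to the same median r was 0.81 (adjusted permutation p = 0.111), and with values not centred by genotype 0.78 (adjusted permutation p = 0.152). The mean of the tested Slc25a4 probe sets gave 0.90 (adjusted permutation p = 0.0170). After quantile normalisation r was 0.93, and without p190B replicates 1 and 3 it was 0.94 (adjusted permutation p = 0.00378 in both).

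The next relations did not pass after adjustment over the 63. Slc25a5 gave r = 0.74 with the lymphocyte markers (adjusted permutation p = 0.0740), at 0.96 within p190B and 0.07 within control. Hk1 gave −0.75 with the same markers (−0.83 within p190B, −0.58 within control) and −0.73 with the macrophage markers (−0.90 and −0.61), both with adjusted permutation p = 0.0740. With the mean of both Hk1 probe sets these became −0.83 and −0.82, each with adjusted permutation p = 0.0178. Those 2 probe sets gave r = 0.55 with each other (permutation p adjusted over the 38 pairs 0.133), 0.88 within p190B and −0.01 within control. Skeletal muscle markers gave r = 0.22 with Slc25a4 and 0.38 with Hk2.

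Hk2 moved with the Gapdh ratio (r = 0.73, rho = 0.78, adjusted permutation p 0.0740 and 0.110), at 0.51 without p190B replicates 1 and 5, 0.93 within p190B and 0.28 within control. Vdac3 ran against the Actb ratio (r = −0.74, rho = −0.73, adjusted permutation p 0.0740 and 0.110), at −0.82 within p190B and −0.52 within control. Slc25a5 gave −0.69 with it, and −0.79 (adjusted permutation p = 0.0178) by the mean of its 8 probe sets. Vdac1 1436992_x_at gave 0.15 with the Gapdh ratio and −0.04 with the Actb ratio. The part of RNA length in these levels was not tested beyond the fits with the ratios as covariates.

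**Figure D5:**
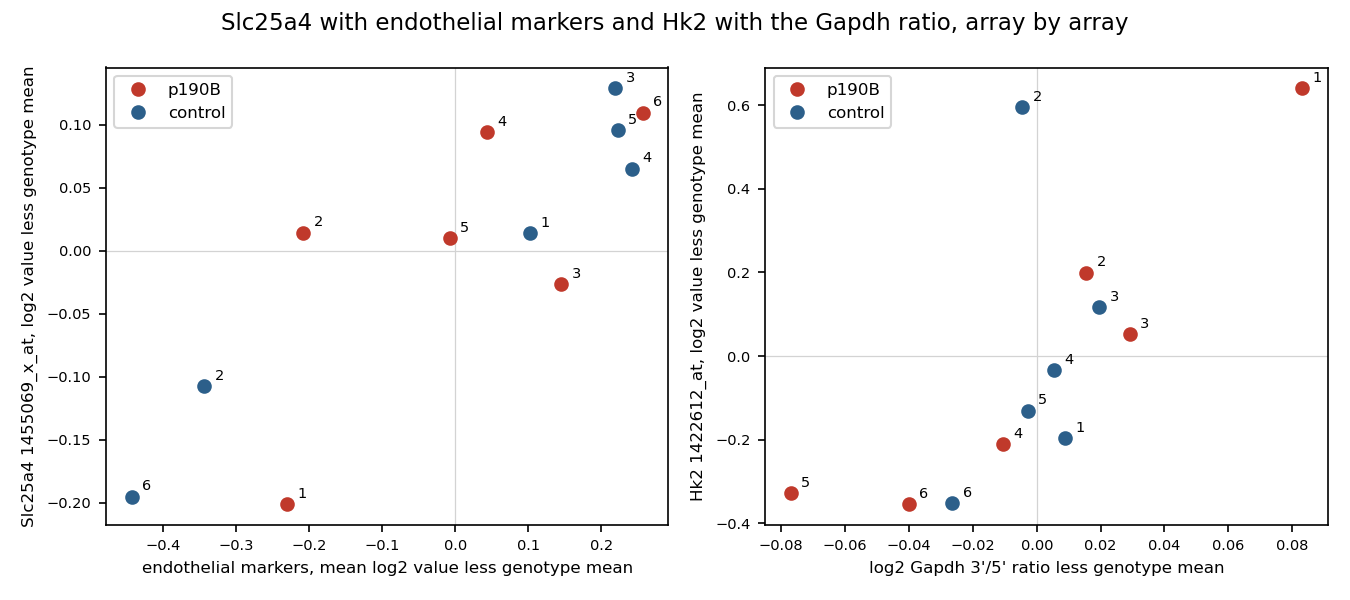
Slc25a4 against the mean of the endothelial markers (left) and Hk2 against the Gapdh 3′ over 5′ ratio (right), both axes in log2 units less the genotype mean, 1 point per array numbered by replicate, p190B in red and control in blue. Slc25a4 follows the markers in both genotypes (r = 0.85), with control replicates 2 and 6 at the low end, and Hk2 is high on p190B replicate 1 and control replicate 2.

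For the brightest probe set of each gene (1436992_x_at for Vdac1), the closest patterns were sought over all 23287 other named probe sets that were tested. By Pearson's r over the 12 arrays, less genotype means, they were as follows. Vdac1 was most like Zfand2b (r = 0.88) and Zc3h15 (0.87), Vdac2 like Mgat2 (0.94) and Prps1l3 (0.94), and Vdac3 like Cops6 (0.96) and Fuca1 (0.96). Slc25a4 was most like Mrpl15 (0.96), a protein of the mitochondrial ribosome, and Pigf (0.96), and Slc25a5 like Ppil1 (0.97) and Jpt1 (0.97). Hk1 was most like Acap2 (0.95) and Cdyl (0.95), and Hk2 like Mapk6 (0.97) and Spsb1 (0.96). Spearman's rho for these 14 ran from 0.78 to 0.96. As the highest of so many they are a description, with no p.

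The other genes around this gate were counted from lists of 84 genes, of which 70 were tested by 159 probe sets. By limma's adjusted p 0 passed in either direction, and 28 had an unadjusted p under 0.05 (15 higher and 13 lower), 17.6% of the lists' probe sets beside 9.32% of all tested. Their median log2 difference was 0.02, as over all tested probe sets. The genes named next have the smallest unadjusted p of their list, and 0 of them passed. The counts per list below stand beside 4.51% higher and 4.81% lower of all tested probe sets at an unadjusted limma p under 0.05. Several probe sets in a count can read the same gene, and the lists were chosen with earlier results known. The counts are therefore a description, and whether a list moved in either direction was not tested.

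Among hexokinases and carriers, Hk3, the isoform of white blood cells, had 418 ± 42.4 units in p190B cells and 349 ± 42.1 in control cells (SD, n = 6 each). The log2 difference was 0.25 (SE 0.10, limma adjusted p = 0.475) and 0.23 by its other probe set. Slc25a3, which brings phosphate into the matrix for ATP synthesis, gave 0.14 (SE 0.06) and −0.01 by its other probe set. Slc25a24, a calcium-regulated ATP-Mg/phosphate carrier, gave −0.22 (SE 0.10) and 0.03 by its other probe set. The carriers Slc25a42 and Slc25a25 gave 0.13 (SE 0.14) and 0.12 (SE 0.17), with the 2 other probe sets of Slc25a25 at 0.01 and 0.03. Over the 10 probe sets of the listed carriers 7 were positive (70%), beside 54.9% of all tested. At an unadjusted limma p under 0.05, 1 was higher and 1 lower.

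Partners of VDAC at the outer membrane and at the contact with the endoplasmic reticulum had 2 higher and 5 lower probe sets of 40 at an unadjusted limma p under 0.05. Mcl1, an inhibitor of cell death, had 23001 ± 663 units in p190B and 26064 ± 1885 in control, a log2 difference of −0.18 (SE 0.05, limma adjusted p = 0.282), and its other probe sets ran from −0.22 to −0.05. The tethers Rmdn3 and Vapb gave −0.22 (SE 0.08) and −0.46 (SE 0.17), and the calcium channel Itpr2 gave 0.37 (SE 0.13), with its 4 other probe sets from −0.04 to 0.26. Other probe sets of Rmdn3 and Vapb were on the positive side, at 0.15 for Rmdn3 and up to 0.11 for Vapb.

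The import and sorting machinery of the outer membrane, through which VDAC proteins reach the membrane, had 1 higher and 6 lower of 31 probe sets at that unadjusted p. Tomm20, a receptor for imported proteins, had 26862 ± 746 units in p190B and 30107 ± 1008 in control, a log2 difference of −0.16 (SE 0.04, limma adjusted p = 0.155), with its 5 other probe sets from −0.22 to 0.14. Samm50, which inserts barrel proteins such as VDAC, gave −0.26 (SE 0.08) and −0.02 by its other probe set. Tomm7 gave −0.28 (SE 0.09), with its 3 other probe sets from −0.02 to 0.14, and the receptor Tomm70a −0.21 (SE 0.07), with its others from −0.18 to 0.06. For these 4 genes 0 of 6 p190B arrays lay above the control median in the probe set named. The choice of probe sets by smallest unadjusted p favours such a count, so it is not read further.

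ATP synthase, which makes the ATP that the carriers export, had 5 higher and 1 lower of 31 probe sets at that unadjusted p, and a median log2 difference of 0.04. Its subunits Atp5d, Atp5k and Atp5a1 gave 0.16 (SE 0.05), 0.21 (SE 0.07) and 0.15 (SE 0.05), and Atp5pb gave −0.12 (SE 0.04). Their other probe sets ran from 0.02 to 0.12, with that of Atp5pb at 0.04. Limma adjusted p ran from 0.303 to 0.406 for these 4. The probe sets named for Itpr2, Atp5d and Atp5pb carry the suffix _s_at, which marks probes shared by several transcripts, at times of different genes.

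Glucose uptake and glycolysis after hexokinase had 5 higher and 0 lower of 35 probe sets at that unadjusted p, with a median of 0.02. Aldoc, an aldolase, had 14176 ± 861 units in p190B and 11576 ± 2007 in control, a log2 difference of 0.31 (SE 0.10), and 0.35 by its other probe set. Pkm, the pyruvate kinase of most dividing tissues, gave 0.16 (SE 0.05), Aldoa 0.12 (SE 0.05) and Pfkl, a phosphofructokinase, 0.19 (SE 0.08). Limma adjusted p ran from 0.352 to 0.457 for these 4. The 4 other probe sets of Aldoa ran from −0.01 to 0.13, and the 2 others of Pfkl from −0.02 to 0.11. Genes of the permeability transition and the energy shuttle had 0 of 10 probe sets at an unadjusted p under 0.05. Ak3, a matrix adenylate kinase, gave −0.13 (SE 0.06), with its 2 other probe sets at −0.09 and 0.03. Ppif, the cyclophilin of the permeability transition, gave 0.13 (SE 0.11), and −0.04 by its other probe set. The creatine kinases Ckmt1 and Ckb gave −0.10 (SE 0.18) and 0.02 (SE 0.10), with the other probe set of Ckmt1 at 0.06.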

How the data were processed

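The deposited table holds 1 linear intensity per probe set for 12 arrays. MAS5 made them, per the submitters' processing notes. Its version and the target it scaled to: not given in the sources used here. The authors' scaling gave every array the same 2% trimmed mean (1000), with medians from 187.6 to 211.5. Groups came from the sample titles. Gene names came from the platform annotation, and all 22 probe sets of the 7 genes kept their symbol in RefSeq. Of 45037 probe sets that are not array controls, those at or above the 40th percentile of mean log2(value + 16), about 101 units, were tested (27022). This scale understates changes of dim probe sets, and precision is limited by the number of arrays. The two-sided comparison of p190B with control used lmFit and eBayes (with trend) of limma 3.58.1, run in R 4.3.3, with Benjamini-Hochberg over all tested probe sets at 0.05, and checked on simulated data. Correlations used two-sided permutation tests with 100000 resamples in Python 3.11.15 on values less their genotype mean; permuting such residuals is approximate.

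Marker levels are means over the brightest probe set of each gene of the mammary epithelial, fibroblast, macrophage, endothelial, lymphocyte, adipocyte and skeletal muscle lists. Named genes are all probe sets of the 7 genes, up to 4 genes per pathway list by smallest unadjusted p, and the 2 most alike probe sets per gene. The genes, lists and settings were chosen with earlier results of these data known. Alternatives covered the pseudocount, filter, normalisation, variance model, covariates and each array left out.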

Additional observations from a re-analysis of the deposited data

Results flagged for a closer look

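In 5 of 68 groups of 6 arrays examined, 1 array lay far from the other 5, and chance gives about 1 in 20 groups. Vdac1 1415998_at was 12.94 (log2) on control replicate 4 against 13.14 to 13.20 on the other control arrays. Vdac2 was 13.69 on control replicate 1 against 13.87 to 13.96. Slc25a5 1438922_x_at was 11.10 on p190B replicate 1 against 11.28 to 11.38 on the other p190B arrays, and 1438545_at was 10.89 on p190B replicate 3 against 11.26 to 11.45. The log2 Actb ratio was 0.35 on control replicate 2 against 0.25 to 0.29.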

How the results depend on the processing

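The count of called probe sets, 10 by the fit reported, moved with the setting. It was 5 with no filter, 17 with a filter at the 60th percentile, 31 after quantile normalisation, 4 with equal medians, 3 with eBayes without trend, 19 with array weights, 0 and 1 when the Gapdh or the Actb ratio was a covariate, 23 when the lymphocyte level was, and 5 without p190B replicates 1 and 3. It ran from 4 to 9 when any 1 array was left out. With the replicate number as a block it was 0 (2287 at an unadjusted p under 0.05). Same-numbered arrays correlated between −0.29 and 0.41 in their deviations, and 1 of 6 p190B arrays matched best the control array of its own number. The labels do not say whether same-numbered arrays share a day or batch, and these few correlations cannot decide it. Vdac1 1437192_x_at passed in 12 of 12 fits with 1 array left out (limma adjusted p 0.00541 to 0.0210) and in 8 of 13 other settings. It did not pass with equal medians (0.0598), eBayes without trend (0.0820), the replicate block (0.0796) or either ratio as a covariate (values in the text). Its log2 difference ran from 0.37 to 0.42 over all 25 alternatives. These refits use the arrays and the contrast that brought Vdac1 into the group, so they add no separate evidence. Vdac1 1436992_x_at passed after quantile normalisation. Of 500 values of these probe sets under other settings, 496 moved by less than 1 SD. The 4 others were with a ratio as covariate: Vdac3 at 0.08 and Hk2 at −0.46 with the Gapdh ratio, and Slc25a5 1434801_x_at at 0.19 and 1438546_x_at at 0.22 with the Actb ratio. None of the pathway genes passed in any setting run. Relations with marker levels that passed numbered 0 with equal medians, 4 by the mean over probe sets and 0 without centring by genotype. Relations among genes that passed numbered 0 without p190B replicates 1 and 3, and 4 with equal medians. After quantile normalisation the carriers passed with each other, and Vdac3 passed with each carrier. These settings were added after seeing the data. The median of all tested probe sets moved by at most 0.031 log2 units under any setting run. Causes were not tested.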
